A study of Rattus norvegicus with 10 samples.

Results

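Perineuronal net and tenascin genes were followed in the rat supraoptic nucleus after knock-down of Opn3, which encodes opsin 3, a light-sensitive receptor protein made in the brain as well as the eye. The members were 10 genes taken by name from a deposited table of 32623 genes, namely Acan, Bcan, Ncan, Vcan, Hapln1, Hapln4, Tnr, Tnc, Cspg5 and Ptprz1, and each name stood beside 1 Ensembl identifier. All 10 passed the filter on low values.

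RNA sequencing had been done on 10 supraoptic nuclei of male Sprague Dawley rats of 250 to 300 g. Every rat received an adeno-associated virus, a vector that carries a gene into cells without replicating, in both nuclei: one side got a short hairpin RNA against Opn3 (shOpn3, n = 5) and the opposite side a non-targeting hairpin (shControl, n = 5). Nuclei were collected 2 weeks later, each with a 1 mm punch from 100 µm sections, so that a sample held whatever tissue lay inside the punch. No group without virus was analysed here, and the viral promoter, the age of the rats and the side that received each hairpin were not given in the labels. The labels do not name the rat behind each sample, so p-values measure the spread between these samples.

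Perineuronal nets are lattices of extracellular matrix that wrap the cell bodies and proximal dendrites of certain neurons. Their backbone is hyaluronan, to which the lecticans aggrecan, brevican, neurocan and versican bind. Link proteins of the Hapln family hold that bond, and tenascin R joins the far ends of the lecticans. The supraoptic nucleus, whose magnocellular neurons release vasopressin and oxytocin, is known for structural plasticity of its glia and matrix in the adult.

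The recovered reads summed to 33158341 to 39958578 per sample, and size factors lay between 0.942 and 1.07. A normalized count, the unit used for levels below, is a gene's reads divided by its sample's size factor. Opn3 itself stood at 719, 694, 841, 1007 and 261 normalized counts across the 5 shControl samples, in order of replicate number, and at 290, 193, 159, 154 and 145 across the 5 shOpn3 samples, leaving 26.7% of the control mean. The groups overlapped through shControl replicate 5. In the limma fit its log2 fold change was -1.82 (SE 0.320, adjusted p = 0.00226, lower in 5 of 5 pairs). A gene was called where limma's adjusted p was under 0.05, which held for 18.8% of the 15597 genes tested, 10.4% as higher and 8.48% as lower in shOpn3. The libraries shControl replicates 1 and 5 stood apart from the other controls in sample quality weights (0.333 and 0.356, against 1.28 to 3.72 in the other 3), and values of named genes are also given without them where that ends a call, turns a direction or moves the fold change widely.

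Of the 10 members, 3 were called, all higher in shOpn3: the link protein gene Hapln1, the tenascin gene Tnc and the lectican gene Ncan. With 18.8% of all genes called, 10.4% as higher, 3 of 10 genes is a count too small to set the members apart. The median log2 fold change of the 10 members was 0.19, against -0.02 for all genes tested. With the replicate number as a block, 5 members were called, Ptprz1 being added as higher and Vcan as lower, where 30.3% of all genes were called (15.1% higher, 15.2% lower). The authors' deposited table had 4 members with an adjusted p under 0.05, namely Hapln1 (1.68e-08), Tnc (0.00466), Ncan (0.0102) and Ptprz1 (0.0400), all with positive log2 fold changes. Among these analyses only the blocked fit called a member lower. Acan, Bcan, Hapln4, Tnr and Cspg5 were called in neither of these limma fits.

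**Figure D1:**
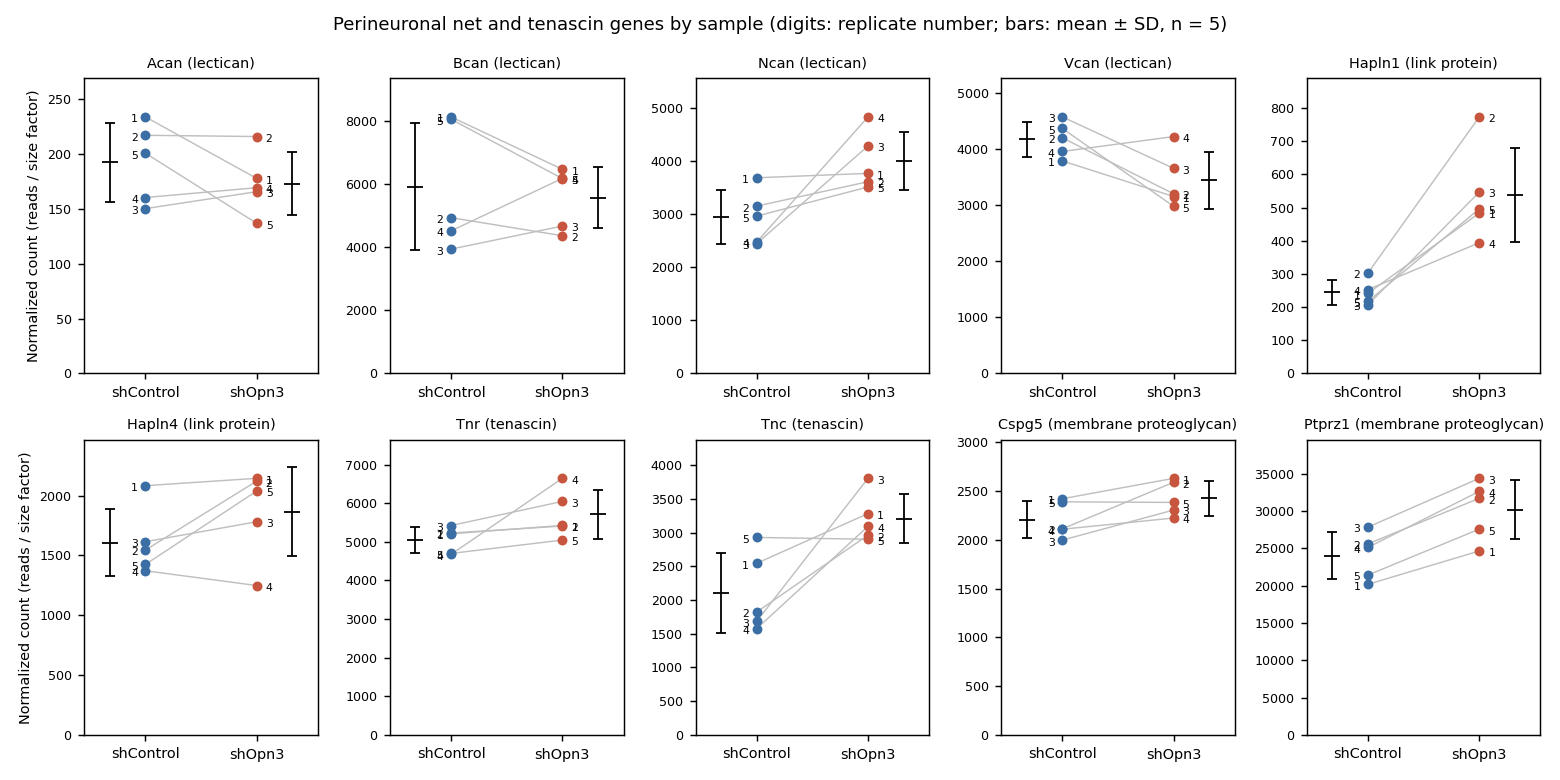
Normalized counts (vertical axes, from 0) of the 10 members in 5 shControl and 5 shOpn3 samples; lines join samples with the same replicate number and black bars give mean ± SD. Hapln1 alone has no overlap between its groups, 207 to 303 against 394 to 773, while the 5 lines of Ptprz1 run upward nearly in parallel.

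The stretch of 250 bases before the annotated transcription start is shown for the 3 genes called higher and for Vcan, the neighbour of Hapln1 that did not rise with it. Sequences are from RefSeq on assembly GRCr8, where 8 of the 10 members had an entry (Cspg5 and Ptprz1 did not). Each reads 5′ to 3′ along its gene. They lie at chr2:22366717-22366966, plus strand (Hapln1), chr5:82476132-82476381, minus strand (Tnc), chr16:19335657-19335906, plus strand (Ncan) and chr2:22595956-22596205, minus strand (Vcan, the outer of 2 starts listed). Capitals mark TATAA on the gene strand within the last 50 bases before the start.
Hapln1: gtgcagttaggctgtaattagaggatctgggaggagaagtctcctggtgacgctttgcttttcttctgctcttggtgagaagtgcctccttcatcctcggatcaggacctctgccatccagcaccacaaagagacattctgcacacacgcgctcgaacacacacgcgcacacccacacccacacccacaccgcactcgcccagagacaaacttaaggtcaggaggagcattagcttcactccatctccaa
Tnc: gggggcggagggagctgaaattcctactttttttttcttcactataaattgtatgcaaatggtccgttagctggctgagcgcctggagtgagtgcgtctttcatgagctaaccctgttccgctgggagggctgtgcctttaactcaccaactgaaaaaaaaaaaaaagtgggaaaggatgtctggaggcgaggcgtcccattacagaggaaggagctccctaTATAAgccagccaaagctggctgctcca
Ncan: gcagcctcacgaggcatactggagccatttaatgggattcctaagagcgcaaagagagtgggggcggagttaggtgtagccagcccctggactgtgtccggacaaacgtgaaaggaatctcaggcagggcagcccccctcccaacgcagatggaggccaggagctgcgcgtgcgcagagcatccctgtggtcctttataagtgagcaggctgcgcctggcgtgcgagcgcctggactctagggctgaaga
Vcan: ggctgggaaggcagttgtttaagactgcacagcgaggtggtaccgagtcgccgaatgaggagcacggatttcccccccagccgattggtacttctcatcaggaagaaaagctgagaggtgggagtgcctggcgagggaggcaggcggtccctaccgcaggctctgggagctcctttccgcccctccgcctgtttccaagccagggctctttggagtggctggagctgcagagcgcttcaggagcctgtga

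Among the sequences printed, Tnc has a TATAA in that window, 28 bases before its start. Over all listed starts of the 8 members, the second start of Vcan has one too, 32 bases before it (not printed). This is a feature of 4.28% of 33465 promoters in the same RefSeq table. The edge of the window matters: Ncan holds a TATAA just outside it, and Tnc another far upstream, each left in lower case. A search of both strands of the 250 bases for TGANTCA (the AP-1 motif), TGACGTCA (cyclic AMP response element), TTCNNNGAA (STAT) and GGG, any 2 bases, TTTCC (NF-kappaB) found none of these letters at any listed start of the 8. They stood in 6.34%, 1.59%, 7.67% and 1.3% of all promoters. The sequences of Hapln1, Tnc, Ncan and Vcan had 54%, 49.6%, 60.8% and 61.6% G and C, against a median of 51.2% over all promoters. A match is a description of the letters and not a binding site.

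Among the link proteins, Hapln1 rose to 2.2-fold of its control level. Hapln1 (ENSRNOG00000032002) encodes the link protein that locks lecticans onto hyaluronan and on which net assembly around many neurons depends. Its normalized counts were 242, 303, 207, 253 and 217 in shControl and 484, 773, 547, 394 and 496 in shOpn3. Every shOpn3 sample lay above every shControl sample, a separation found for 15.3% of all genes tested. The means were 244 ± 37.6 and 539 ± 142 (SD, n = 5 each), and the log2 fold change was 1.11 (SE 0.168, limma's adjusted p = 0.00098, higher in 5 of 5 pairs). Hapln1 reached 156% to 264% of the same-numbered control, with the smallest step in pair 4.

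Hapln4, the link protein of brainstem and cerebellar nets, which works with brevican, had 2083, 1545, 1614, 1372 and 1424 normalized counts in shControl and 2144, 2121, 1781, 1248 and 2038 in shOpn3. The groups overlapped over most of their range, and shOpn3 replicate 4 was the lowest of all 10 samples. Its log2 fold change of 0.20 (95% interval -0.14 to 0.54) was not called (limma's adjusted p = 0.407, higher in 4 of 5 pairs). Taken as unpaired samples, the 2 link proteins differed in their change. The per-sample log2 difference of Hapln1 minus Hapln4 was 0.91 higher in shOpn3, and higher in 5 of 5 pairs. An exact two-sided permutation test, which leaves out the pairing, gave p = 0.00794 (0.0238 adjusted over 9 such contrasts). Exact sign flips over the 5 pairs gave p = 0.0625 (0.112 adjusted), and 5 pairs allow none below 0.0625.

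Among the tenascins, Tnc rose to 152% of its control mean. Tnc (ENSRNOG00000058645) encodes tenascin C, a matrix protein of development, injury and glial reaction. Its normalized counts were 2546, 1822, 1684, 1576 and 2929 in shControl and 3282, 2963, 3805, 3093 and 2901 in shOpn3. The groups overlapped narrowly, since shControl replicate 5 stood above shOpn3 replicate 5. Tnc had a log2 fold change of 0.64 (SE 0.162, limma's adjusted p = 0.0159, higher in 4 of 5 pairs), and pair 5 stood at 99.1% of its control. Without shControl replicates 1 and 5, the 2 highest controls, it was 0.92 (limma's adjusted p = 0.000351). The call was lost when both samples of replicate 2, 3 or 4 were left out (log2 fold changes 0.63, 0.51 and 0.56, limma's adjusted p = 0.0612, 0.0961 and 0.064).

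Tnr (ENSRNOG00000002468) encodes tenascin R, the oligodendrocyte and neuronal tenascin that cross-links the net. It had 5207, 5228, 5422, 4676 and 4699 normalized counts in shControl and 5424, 5408, 6046, 6645 and 5045 in shOpn3. Every pair was higher in shOpn3, at 103% to 142% of its control, yet the groups overlapped and the log2 fold change of 0.17 (95% interval -0.01 to 0.36) was not called (limma's adjusted p = 0.178). All 5 pairs ran the same way in 4 members and in 39.4% of all genes tested. Tnr minus Tnc was 0.47 lower in shOpn3 on the log2 scale, a difference that did not pass (exact two-sided permutation test, p = 0.0794; 0.143 adjusted over 9 contrasts). Without shControl replicate 5 it was 0.62 lower (adjusted p of the exact permutation test 0.0358). The annotated ranges of Tnr and of Tnc each overlap 1 long non-coding RNA gene in the RefSeq table, and whether the authors' counting used the strand was not given, so reads of the partner cannot be told apart.

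The 4 lecticans did not change alike. Ncan (ENSRNOG00000048036), encoding neurocan, a proteoglycan made by astrocytes and neurons, had 3681, 3148, 2443, 2472 and 2959 normalized counts in shControl and 3764, 3607, 4279, 4826 and 3508 in shOpn3. The groups overlapped only through shControl replicate 1. It rose by a log2 fold change of 0.45 (SE 0.125, limma's adjusted p = 0.0254, higher in 5 of 5 pairs), to 102% of the control in pair 1 and to 195% in pair 4. The call was lost without shControl replicate 3 or 4 (0.39 each; limma's adjusted p = 0.0581 and 0.0655), without shOpn3 replicate 3 or 4 (0.42 and 0.38; 0.0685 and 0.0586), and without both samples of replicate 3 or 4 (0.36 and 0.32; 0.134 and 0.128).

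Vcan (ENSRNOG00000029212), encoding versican, the lectican of oligodendrocyte precursors and of nodes of Ranvier, had 3792, 4204, 4578, 3961 and 4372 normalized counts in shControl and 3157, 3205, 3660, 4227 and 2982 in shOpn3. In shOpn3, replicates 1, 2, 3 and 5 lay below all 5 controls and replicate 4 lay among them. Vcan had a log2 fold change of -0.29 (95% interval -0.50 to -0.07; limma's adjusted p = 0.0612, lower in 4 of 5 pairs). It passed with the replicate block (limma's adjusted p = 0.0397) and without shOpn3 replicate 4 (-0.36, limma's adjusted p = 0.013) or both samples of replicate 4 (-0.38, limma's adjusted p = 0.0239).

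Bcan (ENSRNOG00000018798), encoding brevican, a lectican of astrocytes that surrounds synapses, had 8142, 4944, 3946, 4526 and 8067 normalized counts in shControl and 6480, 4371, 4678, 6191 and 6186 in shOpn3. Controls 1 and 5 stood at or above 8067 and the other 3 at or below 4944, with shOpn3 replicates 1, 4 and 5 between them. Brevican's log2 fold change was -0.04 (95% interval -0.49 to 0.41; limma's adjusted p = 0.923, lower in 3 of 5 pairs). Without shControl replicates 1 and 5 it was 0.31 (limma's adjusted p = 0.147). The sign also turned with those controls kept, without shOpn3 replicate 2 (0.0448) or 3 (0.0204), so Bcan had no stable direction.

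Acan (ENSRNOG00000028992) encodes aggrecan, the lectican that most strictly marks dense nets. Its normalized counts were 233, 217, 150, 160 and 200 in shControl and 177, 216, 165, 169 and 137 in shOpn3, with full overlap. The log2 fold change of -0.15 (95% interval -0.49 to 0.20, limma's adjusted p = 0.572, lower in 3 of 5 pairs) was not called. Its interval does not reach the 0.45 of Ncan. Without shControl replicates 1 and 5 the log2 fold change of Acan was -0.02 (limma's adjusted p = 0.953).

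Set against each other within samples, Ncan parted from Vcan and from Acan. The log2 difference Ncan minus Vcan went from -0.52 ± 0.32 to 0.21 ± 0.0337 (SD, n = 5 each), a shift of 0.74 present in 5 of 5 pairs (exact two-sided permutation test, p = 0.00794; 0.0238 adjusted over 9 contrasts). Acan minus Ncan shifted by -0.60, lower in 5 of 5 pairs, with the same exact permutation p-values. Bcan minus Ncan shifted by -0.49, lower in 5 of 5 pairs, but did not pass (exact permutation test, p = 0.0635; adjusted p = 0.143). The contrasts among Acan, Bcan and Vcan had exact permutation p-values of 0.389 to 0.675. The 5 against 5 samples allow no p-value below 0.00794, and sign flips over 5 pairs none below 0.0625, so that the paired version could not pass.

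**Figure D2:**
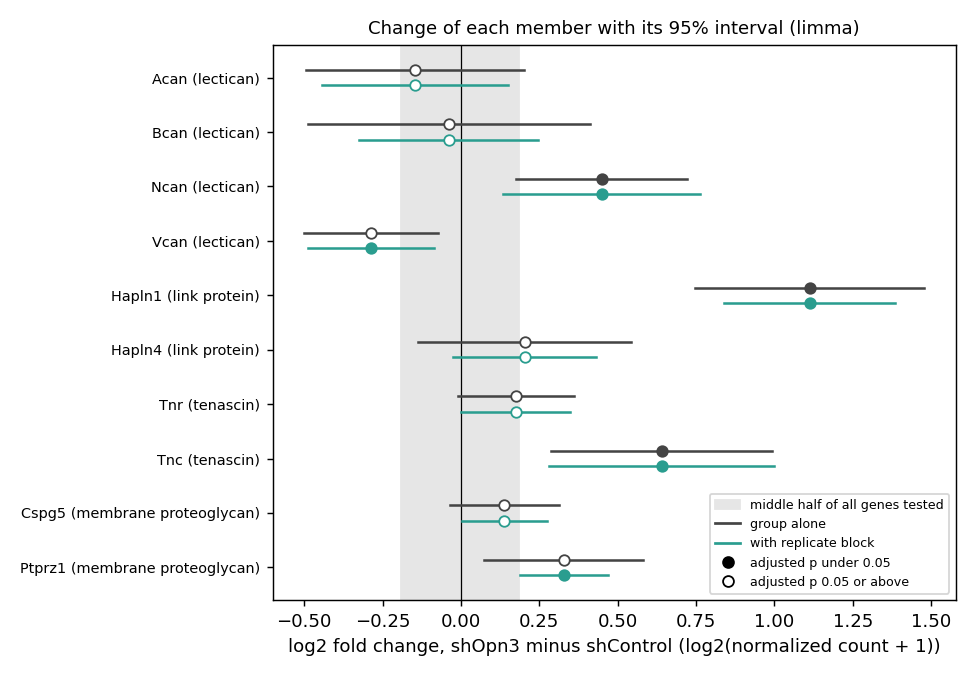
The log2 fold change (horizontal axis, shOpn3 minus shControl) of each member with its 95% interval, from limma with the group alone (grey) and with the replicate block (green); filled points have an adjusted p under 0.05 and the band spans the quartiles of all genes tested. Hapln1 at 1.11, Tnc at 0.64 and Ncan at 0.45 are filled in both fits, and Vcan and Ptprz1 in the blocked fit.

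Of the membrane proteoglycans, Ptprz1 (ENSRNOG00000006030) encodes a receptor tyrosine phosphatase of astrocytes and oligodendrocyte precursors, whose secreted form is the net proteoglycan phosphacan. It had 20167, 25584, 27835, 25120 and 21408 normalized counts in shControl and 24637, 31688, 34366, 32616 and 27564 in shOpn3. The groups overlapped because the samples of replicates 1 and 5 were low on both sides, but within pairs each shOpn3 sample stood at 122% to 130% of its control. The log2 fold change of 0.33 was not called without the block (SE 0.117, limma's adjusted p = 0.0702) and was called with it (SE 0.0612, limma's adjusted p = 0.00552, higher in 5 of 5 pairs). Without shControl replicates 1 and 5, the 2 lowest controls, it was 0.20 (limma's adjusted p = 0.241). It was called without shControl replicate 3 (0.38, limma's adjusted p = 0.0462) or without shOpn3 replicate 1 (0.40, limma's adjusted p = 0.0288).

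Cspg5 (ENSRNOG00000020833), encoding neuroglycan C, a neuronal transmembrane proteoglycan, had 2421, 2112, 1997, 2109 and 2390 normalized counts in shControl and 2631, 2590, 2305, 2224 and 2383 in shOpn3. Its groups overlapped, and the log2 fold change of 0.14 (95% interval -0.03 to 0.31) was not called (limma's adjusted p = 0.257, higher in 4 of 5 pairs). Cspg5 minus Ptprz1 shifted by -0.19 (exact permutation test, p = 0.294; adjusted p = 0.441).

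The lectican and link protein genes stand next to each other in the rat genome, with 0 genes between the partners in each of 4 pairs in the RefSeq table: Vcan with Hapln1, Ncan with Hapln4, Bcan with Hapln2 and Acan with Hapln3. The partners' values differed. In pairs 1, 2, 3 and 5 Hapln1 was higher and Vcan lower in shOpn3, and in pair 4 Vcan stood at 107% and Hapln1 at 156% of the control. Ncan made its largest steps in pairs 3 and 4 (175% and 195%), where Hapln4 stood at 110% and 91%. Hapln2, a link protein of nodes of Ranvier on myelinated axons, fell, while Bcan was not called. Hapln2 had 1635, 652, 552, 648 and 1738 normalized counts in shControl and 282, 182, 242, 365 and 454 in shOpn3, with no overlap (log2 fold change -1.66, SE 0.351, limma's adjusted p = 0.00622, lower in 5 of 5 pairs). Its highest controls were replicates 1 and 5, and without them the log2 fold change was -1.08 (limma's adjusted p = 0.0117). Hapln3 was near the low end of detection, at 8.5 to 24.5 normalized counts in any sample, and was not called.

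**Figure D3:**
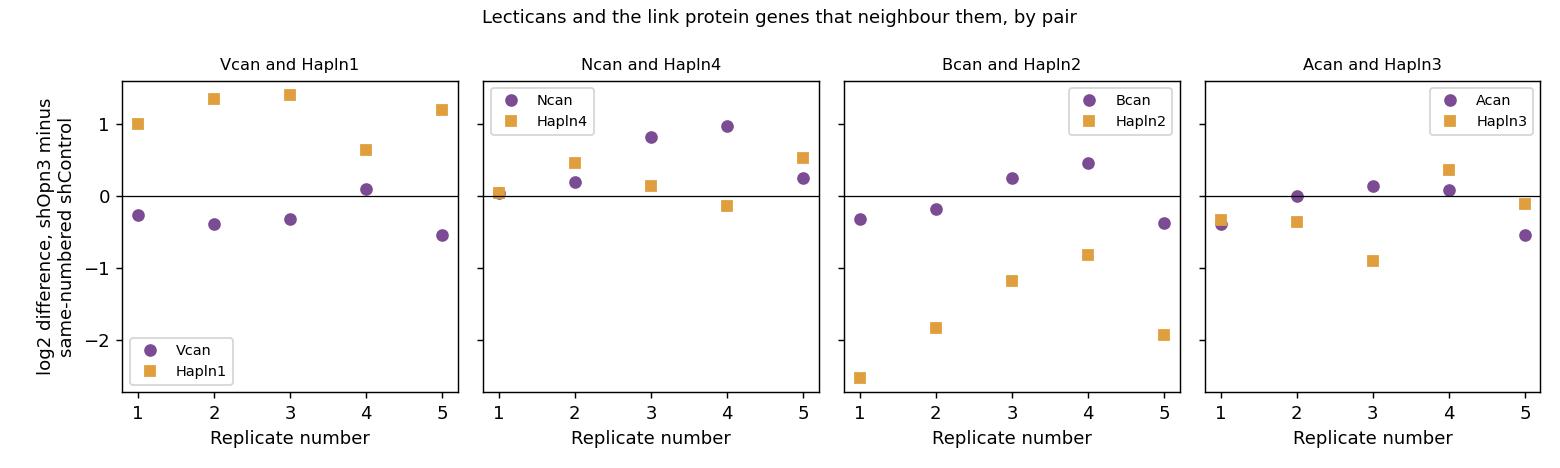
The log2 difference of each shOpn3 sample from the same-numbered shControl sample (vertical axis) for 4 lecticans (circles) and the link protein genes that neighbour them (squares), by replicate number. In the Vcan and Hapln1 panel the squares lie above 0 in all 5 pairs and the circles below 0 in all but pair 4.

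The order of samples within the shOpn3 group differed between members. Replicate 4 was the highest shOpn3 sample for Ncan, Vcan and Tnr and the lowest for Hapln1, Hapln4 and Cspg5. The same sample had the highest summed astrocyte and microglial markers and the lowest summed GABA and general neuron markers of its group. Replicate 2, with the highest Hapln1, had the highest neuron sums and the lowest astrocyte and microglial sums. The part of these differences in the members' values was not tested. Among 11805 other named genes with a mean of at least 100, those whose deviations from the group means were most like those of Hapln1 over the 10 samples were Cox7a2l2, Ndufa3 and Acat1 (Pearson r 0.92, 0.92 and 0.91, given as a description, over samples that share groups and pair numbers). All 3 were lower in shOpn3 (log2 fold changes -0.25, -0.35 and -0.30), so the likeness holds within groups and not between them.

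Other genes of the net were read from lists, whose counts stand beside 10.4% of all genes called higher and 8.48% lower. Without shControl replicates 1 and 5, 3488 of all genes were called, 1816 higher and 1672 lower, against 2940 in the main fit. In the list of other matrix genes, 1 of 18 tested was called higher and 3 lower, with a median log2 fold change of -0.06. The gene called higher was Sema3a, a secreted guidance protein that nets hold through their chondroitin sulphate. Sema3a had 1006, 955, 881, 994 and 1149 normalized counts in shControl and 2328, 2737, 1913, 1542 and 1958 in shOpn3, with no overlap (log2 fold change 1.05, SE 0.136, limma's adjusted p = 0.000483, higher in 5 of 5 pairs). As for Hapln1, shOpn3 replicate 2 was its highest sample and replicate 4 the lowest of the knock-down group. Besides Hapln2, the genes called lower were Spock1 and Spock3, which encode testican proteoglycans (log2 fold change -0.33 each). Both were also called with the replicate block (limma's adjusted p = 0.00239 and 0.0295), as were 30.3% of all genes. Without shControl replicates 1 and 5 neither was called (-0.22 and -0.34, limma's adjusted p = 0.0682 and 0.0631), leaving 1 gene of the list higher and 1 lower.

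Of 17 hyaluronan genes tested, 4 were called, all higher, with a list median of 0.04. With 18.8% of all genes called, that count is too small to set the list apart. Cd44, the hyaluronan receptor of glia and leukocytes, had 1543, 1722, 1567, 1712 and 2191 normalized counts in shControl and 2995 to 3963 in shOpn3, with no overlap (log2 fold change 0.99, SE 0.109, limma's adjusted p = 0.000275). Has2, a hyaluronan synthase, went from a mean of 63.3 ± 10.1 to one of 98.3 ± 13.6 (SD over 5 samples a group; log2 fold change 0.63, limma's adjusted p = 0.0153). Cemip, which takes part in hyaluronan breakdown, and its relative Cemip2 rose by 0.46 and 0.31 on the log2 scale. All 4, which had been picked as called, were higher in 5 of 5 pairs. Of all genes tested, 39.4% ran the same way in all 5 pairs. Cemip2 was also called with the replicate block (limma's adjusted p = 0.0122). Without shControl replicates 1 and 5, Cemip2 was not called (0.23, limma's adjusted p = 0.0736), and the list had 3 genes higher and 1 lower.

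Of 24 genes for chondroitin sulphate synthesis tested, 1 was called higher and 4 lower (list median -0.04), where 18.8% of all genes were called. With the replicate block 4 were higher and 9 lower, where 30.3% of all genes were called. The genes called lower did not include all of their relatives in the list. Xylt2 (-0.04) and the sulphotransferase gene Chst11 (0.11) were not called, and were named after their values were seen. Chst3, which adds sulphate to the 6 position, fell from a mean of 585 ± 109 to one of 397 ± 61.8 (SD over 5 samples a group; log2 fold change -0.55, SE 0.144, limma's adjusted p = 0.0184, lower in 4 of 5 pairs). Papss1 and Papss2, which make the sulphate donor, were both called lower (log2 fold changes -0.43 and -0.47). Xylt1, which starts the chain, had -0.37. The gene called higher was Csgalnact1, which adds the first galactosamine of the chain (log2 fold change 0.33), named here after its value was seen because it was the only one. Most of the lower calls were lost without shControl replicates 1 and 5, in a fit that also had fewer controls. The list then had 2 genes higher and 1 lower. Chst3 (-0.38, limma's adjusted p = 0.0717), Papss1 (-0.22, 0.125) and Xylt1 (-0.30, 0.109) were then not called, while Papss2 was (-0.62, 0.00211). With the replicate block and all 10 samples, Chst3, Papss1 and Xylt1 were called (limma's adjusted p = 0.0202, 0.00446 and 0.0142).

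Among 17 proteases and inhibitors tested, 5 were called higher and 3 lower, with a median of 0.24. Without shControl replicates 1 and 5 there were 6 higher and 2 lower. Timp1, an inhibitor of metalloproteinases, had 288 to 564 normalized counts in shControl and 1183 to 2158 in shOpn3 (log2 fold change 1.95, SE 0.198, limma's adjusted p = 0.000168). Plau, the urokinase-type plasminogen activator, had 22.4 to 48.9 and 77.5 to 158 (log2 fold change 1.90). Adamts4, which cleaves aggrecan and brevican, went the other way, from 1879 to 3834 in shControl to 806 to 1757 in shOpn3 (log2 fold change -0.95, limma's adjusted p = 0.0168). Adamts4 was also called with the replicate block (limma's adjusted p = 0.00169), as were 30.3% of all genes. Its highest controls were replicates 1 and 5, and without them it was not called (-0.61, limma's adjusted p = 0.062). Its relative Adamts20 fell by 0.76 on the log2 scale, and by 0.53 without those controls (limma's adjusted p = 0.00974). None of these 4 genes had overlapping groups, and each ran the same way in 5 of 5 pairs. Over all genes tested the shares were 15.3% and 39.4%, but these 4 had been picked as called with the largest changes. The proteases that cut lecticans did not all fall. Mmp2 (log2 fold change 0.71), Adamts5 (0.56) and Adamts9 (0.51) were also called higher, and the inhibitor gene Timp4 (-0.25) lower. They were named after their values were seen.

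Of 28 receptor and ligand genes tested, 5 were called higher and 6 lower (median -0.06). Cntn2, an axonal contactin that binds members of this matrix, fell from a mean of 6844 ± 1905 to one of 3598 ± 729 (SD over 5 samples a group; log2 fold change -0.91, limma's adjusted p = 0.0051). Its highest controls were again replicates 1 and 5, and without them its log2 fold change was -0.63 (limma's adjusted p = 0.0127). Its relative Cntn5 rose by 0.84 and the integrin subunit gene Itgb3 by 0.87 on the log2 scale. Tlr4, an innate immune receptor that tenascin C can bind, rose by 0.74 (limma's adjusted p = 0.00258, no overlap between groups).

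**Figure D4:**
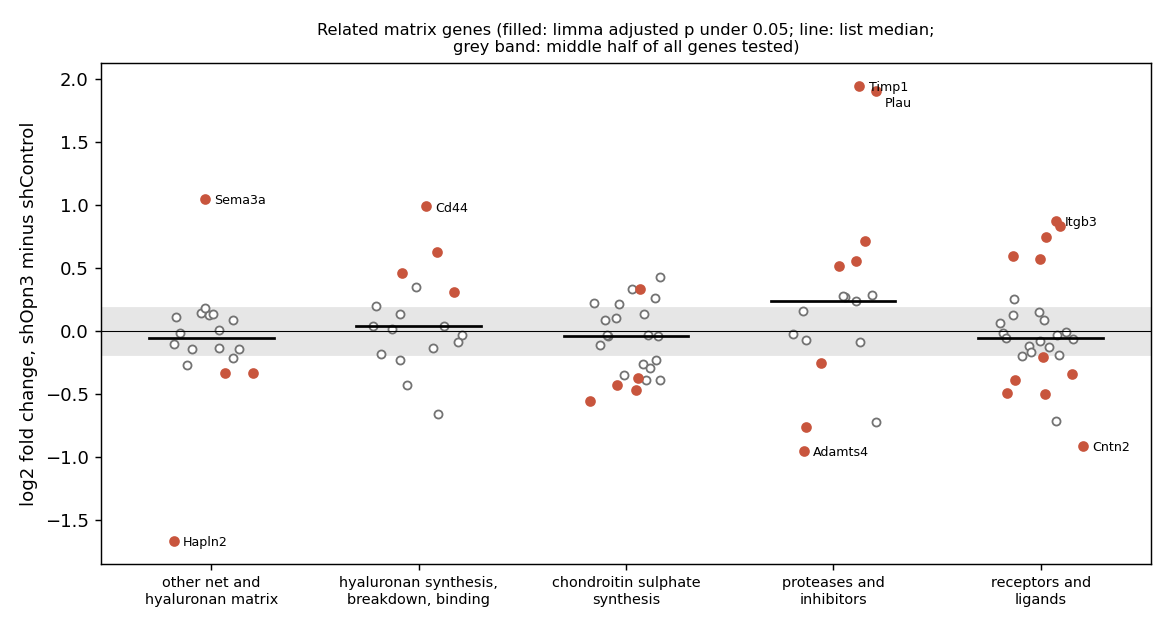
The log2 fold change (vertical axis) of each tested gene of 5 lists related to the net; filled points have a limma's adjusted p under 0.05, lines are list medians and the band spans the quartiles of all genes tested. The list medians lie between -0.06 and 0.24, while single genes run from -1.66 (Hapln2) to 1.95 (Timp1).

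Marker lists of several cell types differed between the groups and others did not. Their counts too stand beside 10.4% of all genes called higher and 8.48% lower. Of 12 astrocyte markers 3 were called higher and 0 lower, and the list's median log2 fold change was 0.01, with summed normalized counts of 355556 to 470930 in shControl and 408608 to 548675 in shOpn3. Gfap, the astrocyte filament gene, had 72133, 45021, 36305, 40318 and 78182 in shControl and 109497, 66372, 118630, 156087 and 126858 in shOpn3 (log2 fold change 1.10, limma's adjusted p = 0.0104). Its 2 highest controls were replicates 1 and 5, as for Tnc and Bcan, and without them its log2 fold change was 1.46 and 5 of the 12 astrocyte markers were called higher. Aqp4, the water channel of astrocyte endfeet, rose by 0.45 on the log2 scale. Other markers of the list lay below 0 and were not called, among them Slc1a3 (-0.14), Gjb6 (-0.19) and Aldoc (-0.16), each lower in 5 of 5 pairs, and Fgfr3 (-0.29). These 4 were named after their values were seen. In a bulk sample, a change in the number of cells of a type and a change in RNA per cell cannot be told apart.

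Of 14 microglia and macrophage markers 12 were called higher and 0 lower, and their sum was 12307 to 16568 in shControl and 22963 to 46789 in shOpn3. Csf1r and C1qa had log2 fold changes of 1.06 and 1.39. Of 12 mature oligodendrocyte markers 11 were called lower, with sums of 789036 to 1332930 and 274060 to 509991 (Mbp, a myelin gene, stood at -1.50 on the log2 scale, or -1.10 when shControl replicates 1 and 5 were left out). Of 10 oligodendrocyte precursor markers tested 1 was higher and 3 lower (sums 13724 to 19863 and 12329 to 16251). Pdgfra, which defines precursors, had a log2 fold change of -0.02 (limma's adjusted p = 0.892), whereas Olig1, shared with mature cells, had -0.88, and -0.57 without shControl replicates 1 and 5. Neu4 averaged under 1 normalized count.

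Fast-spiking and GABA neuron markers, which include the usual net-bearing cells, had 0 of 12 called higher and 1 lower, with sums of 24161 to 37842 and 25727 to 52894 (Gad1 0.47 and Gad2 0.31 on the log2 scale, neither called). The general neuron list had 1 of 12 higher and 3 lower, with sums of 157347 to 222455 and 152284 to 263447 (Map2 0.07, Syt1 0.37, neither called; Map2 -0.09 without shControl replicates 1 and 5). Magnocellular markers, which define the nucleus, were present in every sample, and 8 of 10 tested were lower and 1 higher (sums 80096 to 197079 and 36950 to 66838). Among them Avp, the vasopressin gene, fell by 2.35 on the log2 scale, and Scg2 had a log2 fold change of 0.07, or -0.20 without shControl replicates 1 and 5, not called in either. Prlh averaged under 1 normalized count. Of 10 fibroblast, pericyte and vessel markers 0 were called by limma, with Igf2 and Col3a1 at 0.06 and 0.07. With shControl replicates 1 and 5 left out, the GABA list had 2 genes higher and 2 lower and the precursor list 2 higher and 1 lower, while 11 oligodendrocyte and 8 magnocellular markers were lower and 11 microglial markers higher. The part of these shifts in the changes of Hapln1, Tnc, Ncan, Ptprz1 and Vcan was not tested.

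**Figure D5:**
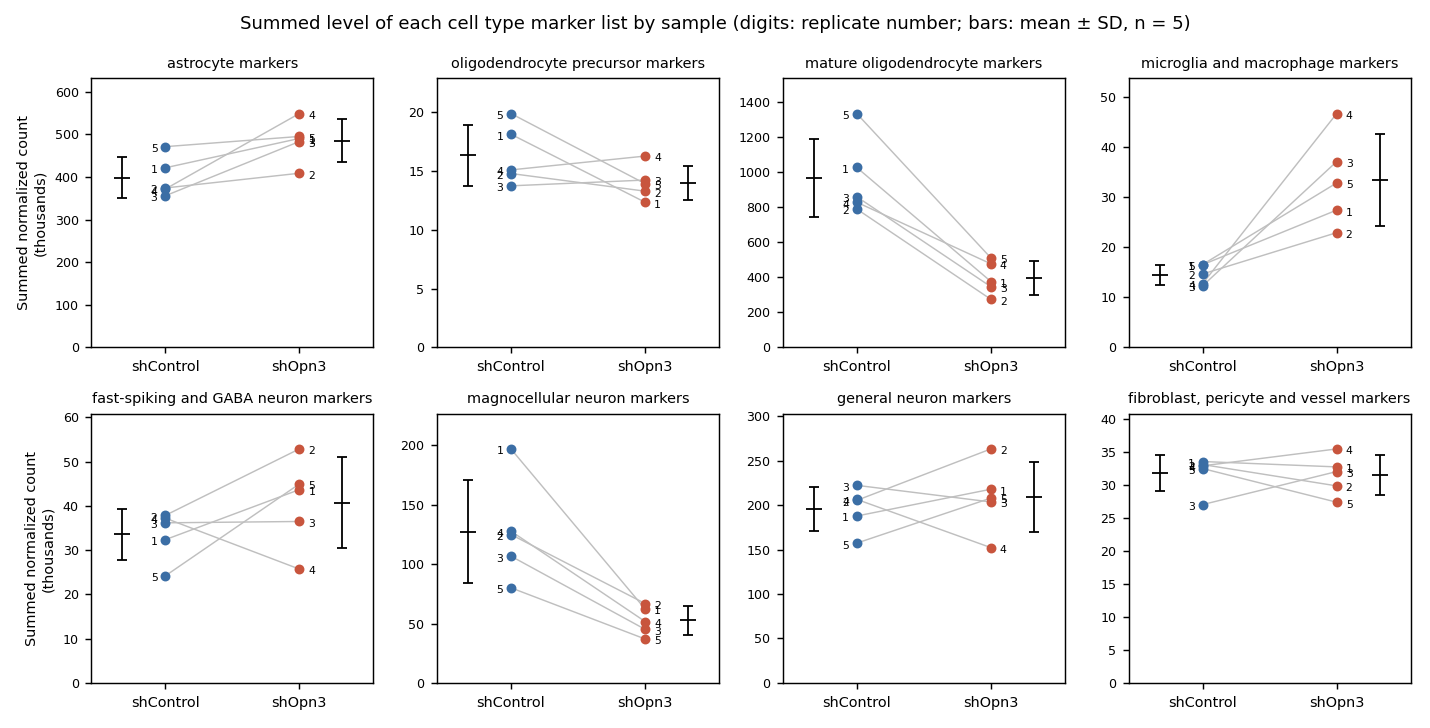
Summed normalized counts (vertical axes, scaled as labelled, from 0) of 8 cell type marker lists in each sample, with lines joining the same replicate number and bars for mean ± SD. Mature oligodendrocyte, microglia and magnocellular sums do not overlap between groups, while astrocyte, precursor, neuron and vessel sums do.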

How the data were processed

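Per the submitters' processing notes, reads were handled with FastQC, STAR, featureCounts and DESeq2; versions, genome build, annotation and strand setting are not given in the sources used here. The deposited signal is a read count scaled by the authors with a single size factor for each library. All values (100%, tolerance 0.01 reads) were whole multiples of 1 step per sample, so whole reads were recovered. The deposited table also held the authors' log2 fold change with its error, a Wald score, and p-values. DESeq2 1.42.0, run on those reads with group alone, returned the authors' log2 fold changes, with 0 genes differing by more than 1e-04.

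Normalized counts were put on a log2 scale after adding 1. Tested were genes averaging 10 or more, with limma 3.58.1 in R 4.3.3 (lmFit, eBayes with a trend, group alone, two-sided, Benjamini-Hochberg over 15597 genes, threshold 0.05). Adding 1 makes fold changes of genes with few reads too small. Count tests of the recovered reads called 3025 genes with edgeR 4.0.16 and 3711 with DESeq2, against 2940 with limma, and limma-voom was run as well. The code was tested on simulated data, where the limma fit called 45 of 100 genes with a true log2 change of 0.5. It called 91 of 100 genes with a true change of 1. No other simulated gene was changed, and no variation shared by pairs was put in, while the real fit called 2940 genes. These shares therefore do not measure how many true changes the real fit finds. A member that was not called is not shown to be unchanged. Intervals are limma's 95% intervals, and percentages of control are ratios of normalized counts. Contrasts between related members were tested by exact two-sided permutation over the 252 splits of 5 against 5.

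Equal replicate numbers were taken to pair samples. The check used each sample's departure from its group mean: samples with equal numbers correlated over genes with r of 0.12 to 0.44 in 5 of 5 cases, against a median of -0.21 for unequal numbers (-0.45 to 0.36). Departures cancel within a group, so positive values for equal numbers force negative ones among unequal numbers. The -0.21 is therefore no independent baseline. Pair 4 had the lowest r, 0.12, and its control correlated better with a sample of another number, so that values of pair 4 rest on the weakest pairing. The members, lists and tests were chosen with earlier results of these data known. Named were all 10 members, Opn3, up to 4 called genes with the largest change from each pathway list, and the 2 most abundant markers of each cell type list. One gene that this rule names is not reported here. Hapln3 was named as a neighbour. Listed genes under the mean of 10 or without an entry in the table were not tested. Gene neighbours and overlaps are from RefSeq on GRCr8, which may differ from the authors' build.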

Additional observations from a re-analysis of the deposited data

Results flagged for a closer look

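In 94 group values examined (a named gene in 1 group of 5 samples), 4 had their highest or lowest sample set off from the next one by more than Dixon's limit of 0.71 of the range, and chance alone gives about 4.7 at 1 in 20. None was a member of the net list. Cd44 was highest in shControl replicate 5 (2191 normalized counts, next 1722), still below every shOpn3 sample. Aqp4 was highest in the same library (95299, next 83143). In shControl replicate 3, Igf2 was lowest at 10199 (next 12734) and so was Col3a1 at 2714 (next 3824).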

How the results depend on the processing

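In each of 28 alternative settings Hapln1 was called higher (log2 fold change 0.97 to 1.23, highest adjusted p 0.0112), and Acan, Hapln4 and Tnr kept their direction and were not called in any of the 28. The replicate block raised the number of members called from 3 to 5 in limma, from 3 to 5 in edgeR and from 4 to 5 in DESeq2, and the number of all genes called from 2940 (1618 higher, 1322 lower) to 4726 (2350 and 2376) in limma, from 3025 to 4777 in edgeR and from 3711 to 4555 in DESeq2. By construction the block takes out variation that same-numbered samples share, and besides Vcan and Ptprz1 it changed the call of none of the 10 members in limma. Limma-voom with sample quality weights called 5 members, among them Vcan and Cspg5 (0.17, adjusted p = 0.0428) but not Ptprz1, and 5085 genes; the cause was not tested. Ptprz1 was also called under quantile normalization (0.39, adjusted p = 0.0257) and by DESeq2 (0.33, adjusted p = 0.04). Leaving out 1 sample, or both samples of a number, gave 1 to 4 members and 1603 to 3057 genes called. Without replicate 3 only Hapln1 was called, with 4 samples a group. Leaving out shControl replicates 1 and 5, an alternative chosen after seeing the data, left 3 members called, the same 3 genes. Bcan had no stable direction: its log2 fold change turned positive under quantile normalization (0.013), voom weights (0.18), without shControl replicate 1 (0.0926) or 5 (0.0893), without shOpn3 replicate 2 (0.0448) or 3 (0.0204), without both samples of replicate 1 (0.0341) or 5 (0.0475), and without both low-weight controls (0.31), and its lowest value was -0.17, without shControl replicate 3. Over the paired sign flips with the replicate block, the contrasts Acan minus Ncan (-0.60), Ncan minus Vcan (0.74) and Hapln1 minus Hapln4 (0.91) had an adjusted p of 0.112, which 5 pairs cannot bring under the threshold. Tnr minus Tnc passed without shControl replicate 5 (-0.62; -0.62 to -0.37 over the samples left out in turn), and Acan minus Bcan was 0.0142 without shOpn3 replicate 5 and -0.27 at its lowest. Depth did not limit the members, the lowest of which had over 100 reads in each sample, whereas Hapln3 rested on few reads.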
